A study of Rattus norvegicus with 12 samples.

Results

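The 9 genes described here, Klf2, Klf3, Klf4, Klf5, Klf6, Klf10, Klf11, Klf13 and Klf15, encode Kruppel-like factors and were measured in cultured rat hepatocytes. They are a part of the rat Klf genes on the array, chosen with earlier results of these data known. Another 5 Klf genes with a probe are described further below. Probes were taken where the RefSeq transcript, with its version removed, maps to the chosen genes. This gave 14 probes for 9 genes among 45579 probes for 38986 genes or transcripts on the array. The family was chosen by the measured Klf5 signal, which was lower with 2 of the compounds than with DMSO on these same arrays, so all values of Klf5 are given as a description with no test. Of the 9 genes, 8 passed the filter on dim probes and Klf2 did not.

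The cells were cryopreserved primary hepatocytes from male Sprague Dawley rats, given 24 h of pre-culture before an exposure that lasted 24 h. The groups were 30 µM triclosan, 30 µM diclosan, 30 µM 1-chloro-3-(4-chlorophenoxy) benzene (CCPB) and the DMSO vehicle control, with 3 arrays each and 12 in all, each hybridised with Cy3-labelled total RNA. All 3 compounds are chlorinated diphenyl ethers. Triclosan and diclosan carry a hydroxyl group, diclosan lacks a chlorine that triclosan has, and CCPB lacks the hydroxyl group and has a ring chlorine at another position. The series describes the 3 arrays of a group as independent experiments without saying whether they came from separate rats, so the p-values measure the spread among these samples. In cultures measured in bulk, fewer cells of a type and less RNA per cell cannot be told apart.

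Kruppel-like factors are transcription factors that bind GC-rich and CACCC sequences through zinc fingers at their carboxyl end, and they share this recognition with the related Sp factors. Their amino-terminal parts differ and recruit either coactivators or corepressors such as CtBP and Sin3 with its histone deacetylases. In liver, Klf15 is known as a regulator of amino acid breakdown and glucose production, Klf6 and Klf10 respond to injury and growth factors, and several members are induced by glucocorticoids or serum.

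Slide 1 carried all 3 triclosan and all 3 DMSO arrays together with diclosan replicates 1 and 2, and slide 2 carried diclosan replicate 3 beside the 3 CCPB arrays. CCPB therefore had no array on a slide with DMSO or triclosan, and slide and compound could be separated only through the diclosan arrays. The first principal component held 40.6% of the variance over the tested genes. Diclosan replicate 3 lay at 12.9 on it, apart from diclosan replicates 1 and 2 at -12.4 and -13.5, with the CCPB arrays at 24.5 to 27.1 and the DMSO arrays at -14.9 to -11.1. The CCPB minus DMSO differences of the members are therefore given also with the slide as a block in the fit, as are the called differences between CCPB and the other compounds. All 8 hepatocyte markers were tested, and their summed signal relative to each array's 75th percentile was 2004 to 2116 with triclosan, 1997 to 2076 with diclosan, 2104 to 2150 with CCPB and 2064 to 2164 with DMSO. Of the macrophage markers 3 of 8 were tested, with sums of 0.722 to 0.914, 0.962 to 1.05, 0.849 to 0.979 and 0.678 to 0.884 in the same order of groups.

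Klf5, a factor known for driving epithelial proliferation, was the member whose fall prompted the choice of the family. The values below are log2 probe signal minus the log2 75th percentile of the array, a scale on which 0 is the signal of a probe at that percentile and on which different probes cannot be set against each other. On its brightest probe Klf5 read -1.57, -1.49 and -1.56 in triclosan cultures, -1.32, -1.39 and -1.35 in diclosan cultures and -1.46, -1.53 and -1.48 in CCPB cultures, against -1.19, -1.16 and -1.19 in DMSO cultures. Every treated array was below every DMSO array. The differences from DMSO were -0.36 with triclosan, -0.18 with diclosan and -0.31 with CCPB, or 1.28, 1.13 and 1.24 times lower on the linear scale. The triclosan arrays were all below the diclosan arrays and the diclosan arrays all above the CCPB arrays, while triclosan and CCPB overlapped. With the slide as a block the 3 differences were again -0.36, -0.18 and -0.31, and diclosan replicate 3, on slide 2, fell between its other replicates. After normexp background correction and quantile normalization they were smaller, at -0.28, -0.10 and -0.14.

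Klf5 had 3 probes, all well above background on all 12 arrays, and they did not show the same picture. The second probe read -3.18, -3.01 and -3.04 with triclosan, -3.10, -2.99 and -3.25 with diclosan and -3.29, -3.05 and -3.21 with CCPB, against -3.09, -3.06 and -3.14 with DMSO. Here the groups overlapped, and the differences from DMSO were 0.02, -0.02 and -0.09, with the CCPB difference turning to 0.11 under the slide block. The dimmest probe read -3.75, -4.26 and -4.18 with triclosan, -3.63, -3.66 and -3.89 with diclosan and -4.31, -4.39 and -4.26 with CCPB, against -3.61, -3.69 and -3.94 with DMSO. On this probe the CCPB arrays lay below all DMSO arrays and the other groups overlapped DMSO, with differences of -0.32, 0.02 and -0.57. Blocked by slide, the CCPB difference on this probe was -0.33. The median unscaled intensity of the second probe was 57.0 in DMSO arrays and that of the dimmest was 37.2, against 215.1 for the brightest. Over the mean of the 3 probes the differences were -0.22 with triclosan, -0.06 with diclosan and -0.33 with CCPB. Averaged this way, triclosan minus CCPB turned to 0.11, from -0.05 on the brightest probe.

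**Figure D1:**
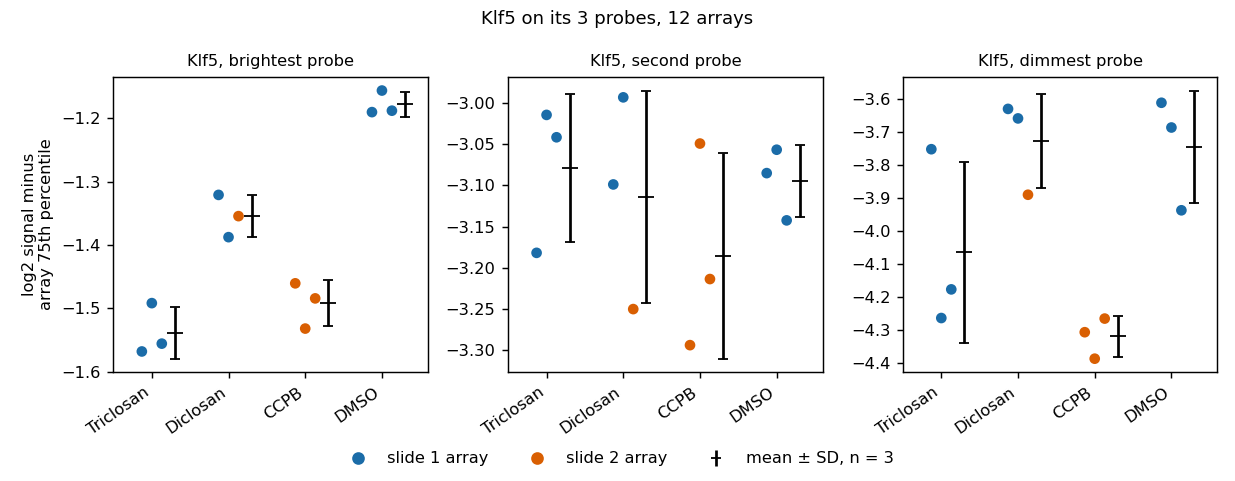
Klf5 on its brightest, second and dimmest probe. Each point is an array (log2 signal minus the array's 75th percentile, colour by slide), with the mean ± SD of 3 arrays for triclosan, diclosan, CCPB and DMSO; the treated arrays are all below DMSO on the brightest probe and overlap DMSO on the second.

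Promoter windows are printed to show the CACCC boxes that this family recognises in genes of the family itself, for Klf5, for Klf15, a called member, and for Klf9, a relative described below. The windows run from 250 bases before to 50 bases after the start that the RefSeq promoter table (build GRCr8) gives, and are written 5′ to 3′ on the gene's own strand. They are chr15:82471831-82472130 on the plus strand for Klf5, chr4:124522765-124523064 on the plus strand for Klf15 and chr1:230126396-230126695 on the plus strand for Klf9. Capitals mark CACCC or its reverse complement GGGTG.
Klf5: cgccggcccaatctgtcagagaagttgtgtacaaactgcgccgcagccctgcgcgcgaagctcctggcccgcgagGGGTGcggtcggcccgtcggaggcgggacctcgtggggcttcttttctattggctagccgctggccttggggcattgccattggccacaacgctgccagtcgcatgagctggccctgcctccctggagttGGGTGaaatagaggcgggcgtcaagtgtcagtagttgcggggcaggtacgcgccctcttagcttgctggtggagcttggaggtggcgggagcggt
Klf15: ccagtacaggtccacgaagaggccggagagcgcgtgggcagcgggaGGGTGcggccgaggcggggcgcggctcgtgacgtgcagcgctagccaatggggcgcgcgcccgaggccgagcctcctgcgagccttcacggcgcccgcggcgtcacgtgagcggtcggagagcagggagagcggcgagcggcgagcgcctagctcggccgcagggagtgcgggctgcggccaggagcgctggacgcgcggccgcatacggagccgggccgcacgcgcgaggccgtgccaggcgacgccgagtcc
Klf9: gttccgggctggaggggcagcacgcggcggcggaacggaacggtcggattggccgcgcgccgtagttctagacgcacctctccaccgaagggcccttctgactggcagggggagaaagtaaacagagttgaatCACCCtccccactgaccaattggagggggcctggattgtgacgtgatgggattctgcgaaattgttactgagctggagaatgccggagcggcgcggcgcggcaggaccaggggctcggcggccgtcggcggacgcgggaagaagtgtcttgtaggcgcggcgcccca

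The Klf5 window held 2 matches and the Klf15 and Klf9 windows 1 each. The table had a window for 6 of the 9 members, and CACCC on either strand occurred in 3 of the 6, with 4 matches for Klf3 and 0 for Klf4, Klf6 and Klf11. Among 33469 rat promoter windows of the same length 54.9% held at least 1 match. The GC box GGGCGG, or CCGCCC on the other strand, occurred in the windows of Klf3, Klf6 and Klf11, 7 times in Klf11, and in 33.1% of all windows. The GC content was 54.0% for Klf3, 45.0% for Klf4, 65.3% for Klf5, 64.7% for Klf6, 77.0% for Klf11 and 77.3% for Klf15. The median over all windows was 51.7%. These matches describe letters in the windows only.

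Klf3, a repressor that recruits CtBP, was lower with CCPB. Its brighter probe read 1.76, 1.78 and 1.68 with triclosan, 1.83, 1.83 and 1.73 with diclosan and 1.66, 1.58 and 1.55 with CCPB, against 1.81, 1.80 and 1.86 with DMSO. The CCPB arrays were below all others. The group means were 1.60 ± 0.06 for CCPB and 1.82 ± 0.03 for DMSO (SD, n = 3 each), and the difference of -0.23 (95% interval -0.33 to -0.12) had an adjusted p of 0.00661 in limma with Benjamini-Hochberg adjustment over all genes. In the fit with the slide as a block it was -0.12 (-0.29 to 0.04), adjusted p = 0.433 in limma. The dimmer Klf3 probe did not share this fall: it read 0.19, 0.25 and 0.19 with CCPB against 0.17, 0.18 and 0.13 with DMSO, the CCPB arrays all above the DMSO arrays. Its difference was 0.05 with an adjusted p of 0.472 in limma, and 0.20 with an adjusted p of 0.18 under the slide block, so the lower level of Klf3 stood on its brighter probe alone.

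Klf4, a factor that is quickly induced by serum withdrawal and stress, showed the largest CCPB difference among the 7 tested members other than Klf5. Its probe, printed in 2 spots, read -0.15, -0.07 and -0.16 with triclosan, 0.14, 0.03 and 0.04 with diclosan and -0.10, -0.31 and -0.32 with CCPB, against 0.03, 0.04 and 0.14 with DMSO. Triclosan and CCPB arrays were all below DMSO and diclosan arrays. Klf4 averaged -0.24 ± 0.13 with CCPB and 0.07 ± 0.07 with DMSO (SD, n = 3 each), a difference of -0.31 (-0.46 to -0.17), or 1.24 times lower, with an adjusted p of 0.00754 in limma. With the slide as a block the difference was -0.27 (-0.54 to 0.01) with an adjusted p of 0.291. The triclosan difference of -0.20 (-0.34 to -0.05) did not pass, adjusted p = 0.295 in limma, and with diclosan the difference was -0.00068 with an interval of -0.15 to 0.15.

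Klf15, which is induced by glucocorticoids and fasting in liver, was also lower with CCPB. Its probe read 2.49, 2.58 and 2.45 with triclosan, 2.32, 2.35 and 2.34 with diclosan and 2.27, 2.31 and 2.22 with CCPB, against 2.49, 2.52 and 2.42 with DMSO. All diclosan and CCPB arrays were below all triclosan and DMSO arrays. With CCPB Klf15 averaged 2.26 ± 0.05, and with DMSO 2.48 ± 0.05 (SD, n = 3 each), a difference of -0.21 (-0.31 to -0.12), adjusted p = 0.00695 in limma. The slide block left its size at -0.22 (-0.41 to -0.04) and widened the interval, with an adjusted p of 0.182. With diclosan the difference was -0.14 (-0.24 to -0.04) and did not pass, adjusted p = 0.34 in limma, and without diclosan replicate 3 it was -0.14 with an adjusted p of 0.414.

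Klf11, a Sin3-recruiting repressor known as a TGF-beta-inducible early gene, differed between its 2 probes. The brighter probe read 0.68, 0.72 and 0.65 with triclosan, 0.63, 0.69 and 0.56 with diclosan and 0.63, 0.56 and 0.65 with CCPB, against 0.82, 0.79 and 0.71 with DMSO. The CCPB and diclosan arrays were below all DMSO arrays, while triclosan overlapped DMSO. The CCPB difference was -0.16 (-0.26 to -0.06) with an adjusted p of 0.0254 in limma, and with the slide as a block it was -0.07 (-0.23 to 0.10) with an adjusted p of 0.695. The dimmer probe went the other way, at -1.98, -1.85 and -2.11 with CCPB against -2.09, -2.26 and -2.30 with DMSO. Those arrays overlapped, and the difference was 0.24 with an adjusted p of 0.0939 in limma, or 0.31 with an adjusted p of 0.418 under the slide block. The call for Klf11 was lost without either DMSO replicate 1 or 2 or CCPB replicate 1 or 2, with adjusted p from 0.0525 to 0.0874.

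**Figure D2:**
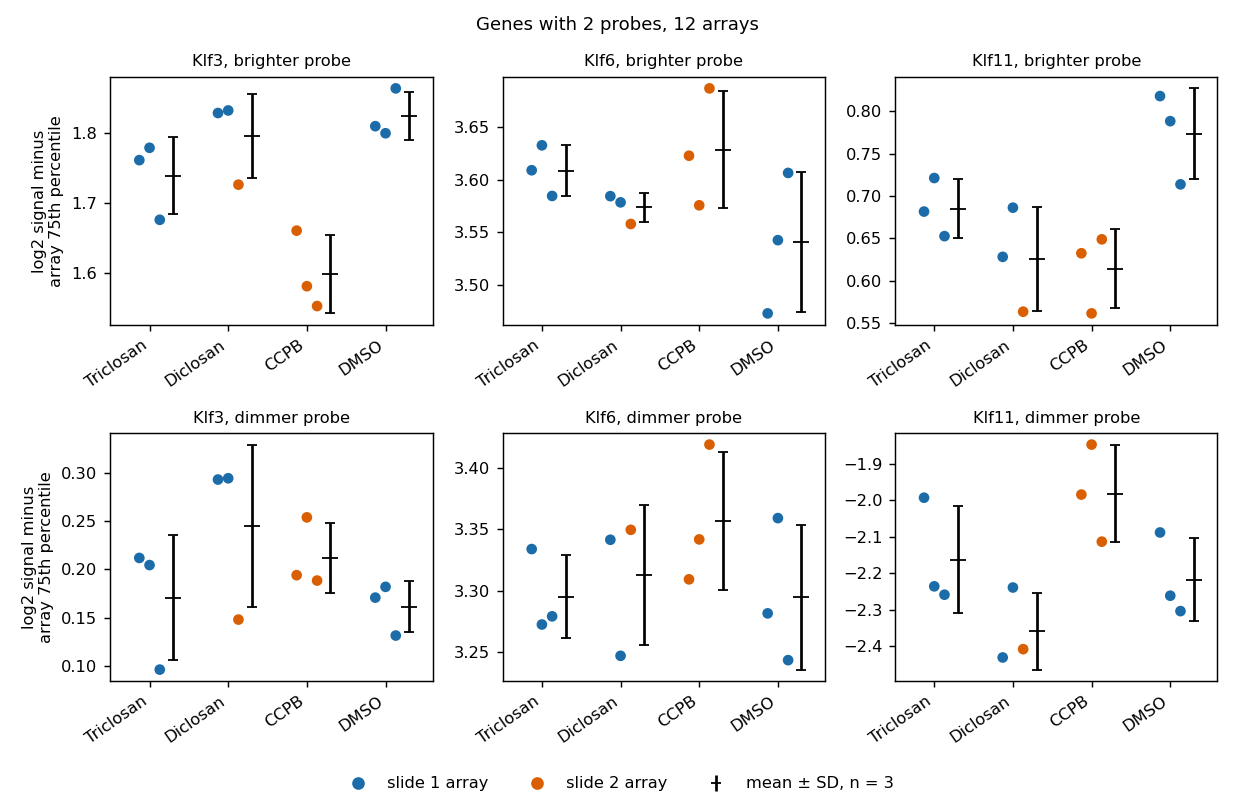
The 3 genes with 2 probes, brighter above and dimmer below, as log2 signal minus the array's 75th percentile with mean ± SD of 3 arrays for triclosan, diclosan, CCPB and DMSO. CCPB arrays are below DMSO on the brighter probes of Klf3 and Klf11 but not on their dimmer probes, and overlap DMSO on both Klf6 probes.

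The other members did not pass the test in any of the 6 comparisons. Klf6, a factor induced on liver injury, read 3.61, 3.63 and 3.58 with triclosan, 3.58, 3.58 and 3.56 with diclosan and 3.62, 3.58 and 3.69 with CCPB, against 3.47, 3.54 and 3.61 with DMSO. Its groups each overlapped DMSO, the CCPB difference was 0.09 (-0.01 to 0.18), or 0.11 under the slide block, and on the dimmer probe it was 0.06, or 0.01 under the block. Klf10, the closest relative of Klf11 and likewise TGF-beta-inducible, read 2.37, 2.46 and 2.43 with triclosan, 2.50, 2.43 and 2.34 with diclosan and 2.38, 2.42 and 2.37 with CCPB, against 2.35, 2.46 and 2.46 with DMSO. All 4 groups overlapped, and the intervals of the Klf10 differences from DMSO ran from -0.11 to 0.11 for triclosan and for diclosan and from -0.14 to 0.08 for CCPB. The Klf10 difference with CCPB was -0.03, and under the slide block 0.09 (-0.08 to 0.26). Klf13, which recruits Sin3 and is best known in lymphocytes, read -1.21, -1.09 and -1.04 with triclosan, -1.40, -1.15 and -1.32 with diclosan and -1.26, -1.28 and -1.44 with CCPB, against -1.09, -1.13 and -1.27 with DMSO. The CCPB difference of Klf13 was -0.16 (-0.34 to 0.01), or -0.12 (-0.46 to 0.21) under the slide block, and CCPB overlapped DMSO. Klf2, known mainly from endothelium and lymphocytes, was not well above background on any of the 12 arrays, with a median unscaled intensity of 4.03 with triclosan, 4.17 with diclosan, 4.80 with CCPB and 3.42 with DMSO, and no difference was computed for it.

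**Figure D3:**
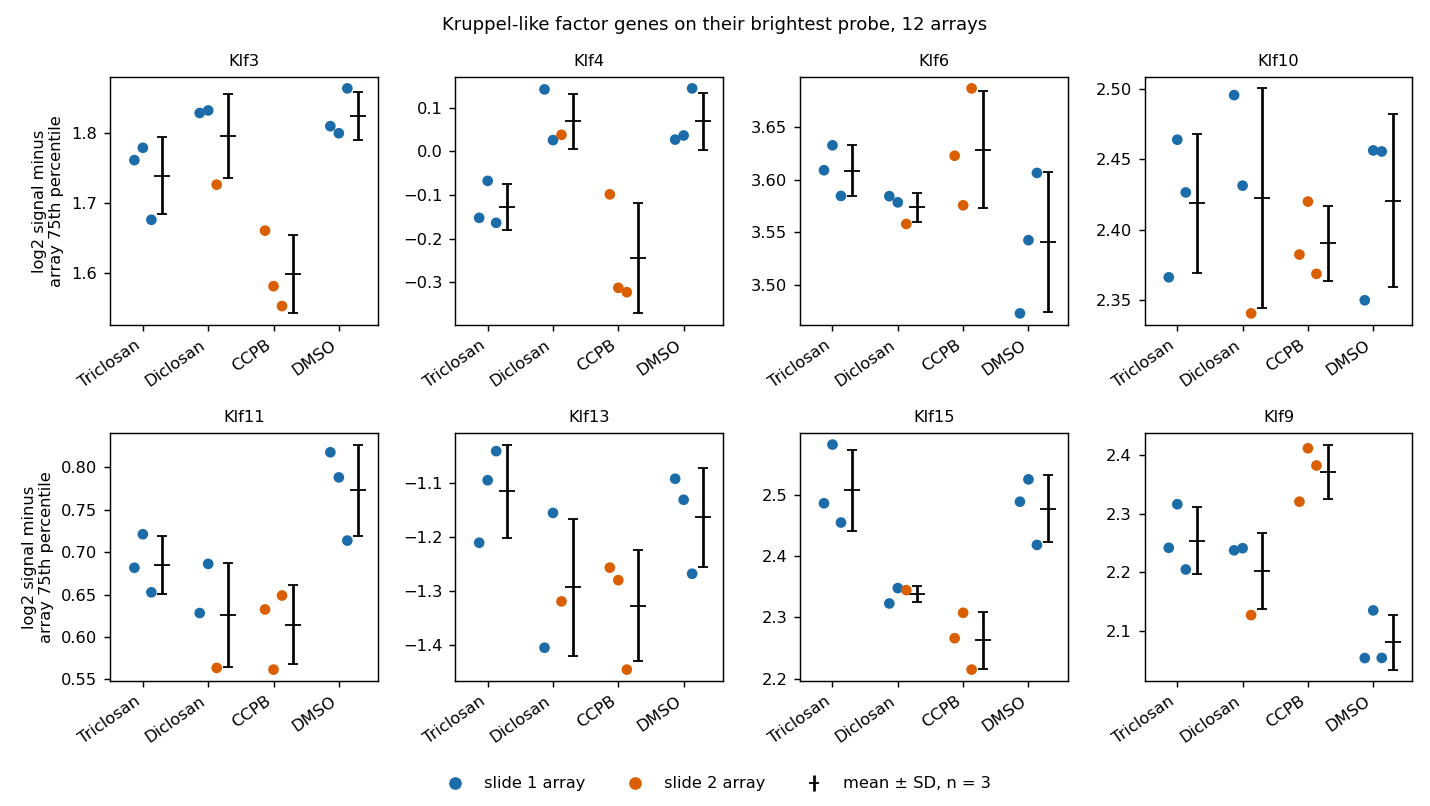
The 7 tested members other than Klf5, and Klf9, on their brightest probe, as log2 signal minus the array's 75th percentile, with mean ± SD of 3 arrays for triclosan, diclosan, CCPB and DMSO and points coloured by slide. CCPB has the lowest mean for Klf3, Klf4, Klf10, Klf11, Klf13 and Klf15 and the highest for Klf6 and Klf9; for Klf9 its arrays are all above DMSO.

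Set against DMSO, 4 of the 7 tested members other than Klf5 were called lower with CCPB on their brightest probe (Klf3, Klf4, Klf11 and Klf15) and 0 higher. The members were chosen with earlier results of these data known. Of the 4 tested Klf genes outside them, 2 were called higher (Klf9 and Klf14) and 1 lower (Klf12). The dimmer probes of Klf3 and Klf11 did not share the fall, at 0.05 and 0.24, and over the mean of all probes 2 members were called. Over all 20359 genes or transcripts 28.3% were called with CCPB, 14.3% as higher and 14% as lower. Arrays of the 2 groups did not overlap for the same 4 members, as for 50.1% of all genes. With the slide as a block 0 of the 7 members passed in limma, where 3.46% of all genes were called. At the looser threshold of an unadjusted p under 0.05 it was 1 member (Klf15). The median difference of the 7 members was -0.16, and that of all genes 0.01. CCPB and slide cannot be told apart for these 4 calls beyond what the single diclosan array on slide 2 allows.

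With triclosan 0 of the 7 members passed in limma, where 0.0639% of all genes were called. At an unadjusted p under 0.05 there were 2359 of all 20359 genes or transcripts, and 1 of the 7 members (Klf4). The arrays did not overlap for 2 members, Klf3 and Klf4, both lower, and for 19% of all genes. With diclosan 0 of 7 passed, where 0.00982% of all genes were called. At an unadjusted p under 0.05 there were 2152 of all 20359 genes or transcripts, and 2 of the 7 members (Klf11 and Klf15). The same 2 had arrays all below DMSO, and 16.1% of all genes did not overlap in either direction. Calls were few over the whole array in both comparisons, and the 95% interval of a difference had a median half-width of 0.145. With the slide as a block both counts were again 0, beside 0.226% of all genes with triclosan and 0.0147% with diclosan.

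**Figure D4:**
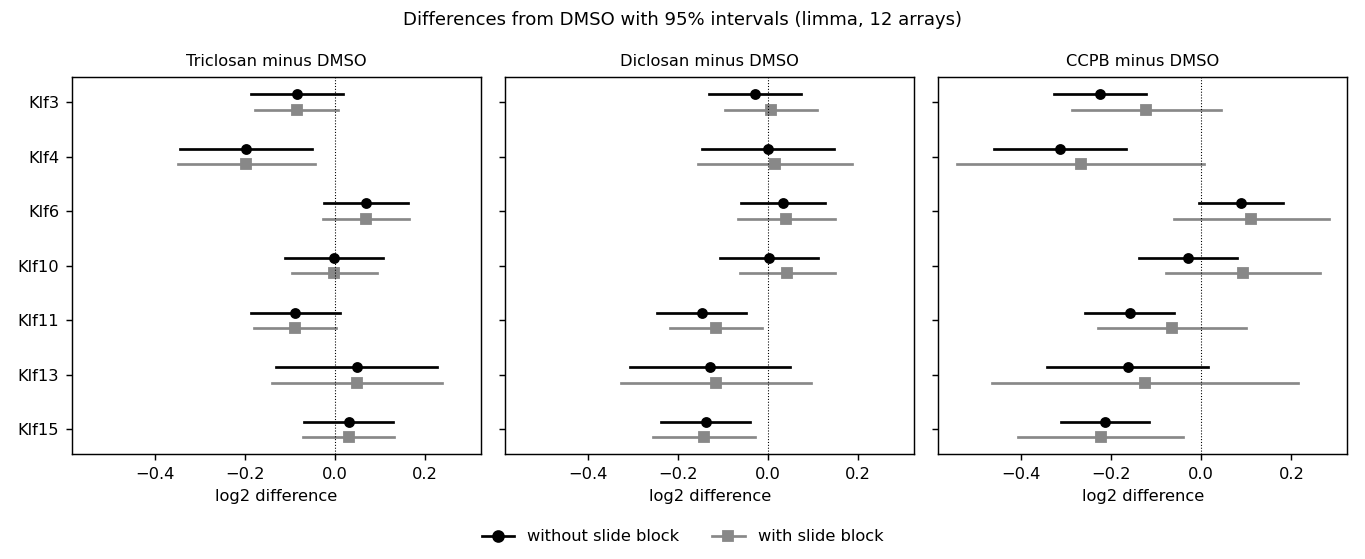
Differences from DMSO of the 7 tested members other than Klf5 for triclosan, diclosan and CCPB (log2, limma over 12 arrays, bars are 95% intervals), without and with the slide as a block. Without the block the CCPB intervals of Klf3, Klf4, Klf11 and Klf15 lie below 0; with it only that of Klf15 does.

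The 3 pairs of compounds were compared at the same dose and time, with p-values adjusted over all genes in each pair. Triclosan and diclosan, which differ by a chlorine, gave 0 calls among the 7 members, where 0% of all genes were called in limma. At an unadjusted p under 0.05 there were 1391 of all 20359 genes or transcripts, and 2 of the 7 members. These were Klf15, 0.17 (0.07 to 0.27) higher with triclosan, and Klf4, with a difference of -0.20 (-0.34 to -0.05), and together with Klf6 these were the members whose arrays did not overlap, as for 9.94% of all genes. Between triclosan and CCPB 1 of 7 members was called, where 20.5% of all genes were: Klf15 was 0.24 (0.15 to 0.34) higher with triclosan, adjusted p = 0.00576 in limma. Blocked by slide, that difference was 0.25 (0.07 to 0.44) with an adjusted p of 0.179. Arrays did not overlap for Klf3, Klf11, Klf13 and Klf15, all higher with triclosan, and for 43.4% of all genes, and with the slide block 1.41% of all genes were called. Klf3 was close to the threshold in this pair at 0.14, adjusted p = 0.0548, and passed at 0.0323 when diclosan replicate 3 was left out. Without that array slide 2 held CCPB only, so that fit could not separate compound from slide. With all arrays, the Klf3 difference under the slide block was 0.04 (-0.13 to 0.20), adjusted p = 0.862 in limma.

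Diclosan and CCPB have the same number of chlorines and differ in the hydroxyl group and in the position of a ring chlorine. Between them 2 of 7 members were called, where 14.4% of all genes were. Klf3 was 0.20 (0.09 to 0.30) higher with diclosan, adjusted p = 0.0191, and Klf4 0.31 (0.17 to 0.46) higher, adjusted p = 0.0117, both in limma. Without diclosan replicate 3, which stood apart on slide 2, the differences were 0.23 and 0.33 with adjusted p of 0.00645 and 0.0129. That fit left no diclosan array on slide 2, so it could not separate compound from slide. Over all genes it gave 5427 calls, against 2925 with that array kept. With all arrays, the slide block gave 0.13 for Klf3 and 0.28 for Klf4, with adjusted p of 0.271 and 0.141. In that blocked fit 4.95% of all genes were called. Arrays did not overlap for Klf3, Klf4 and Klf15, and for 32.3% of all genes. Without diclosan replicate 1 the count fell to 0. On slide 2 itself, diclosan replicate 3 read 1.73 for Klf3 and 0.04 for Klf4, above all 3 CCPB arrays in both genes. With 1 diclosan array on that slide, the spread of diclosan there is not known, and the order of these arrays is a description only. The dimmer Klf3 probe differed by 0.03, adjusted p = 0.687 in limma. The Klf11 probes again parted here: the brighter differed by 0.01, and the dimmer was called at -0.38, adjusted p = 0.0284 in limma, or 0.137 with the slide as a block.

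Among the other Klf genes, 5 of 8 had a probe and 4 were tested. Klf9, a close relative of Klf13 that is induced by glucocorticoids and thyroid hormone, rose with CCPB. It read 2.24, 2.32 and 2.21 with triclosan, 2.24, 2.24 and 2.13 with diclosan and 2.32, 2.41 and 2.38 with CCPB, against 2.05, 2.14 and 2.05 with DMSO. The triclosan and CCPB arrays were all above the DMSO arrays, and diclosan overlapped them. The CCPB difference was 0.29 (0.19 to 0.40), adjusted p = 0.00212 in limma, and it passed with the slide as a block too, at 0.40 (0.23 to 0.57) and an adjusted p of 0.025. Between diclosan and CCPB Klf9 was -0.17 without and -0.24 with the block, adjusted p = 0.0397 and 0.0485. Klf12 at -0.29 and Klf14 at 0.23 were called with CCPB in limma but not with the slide as a block. There Klf12 was -0.31 (adjusted p = 0.369) and Klf14 was 0.05 (adjusted p = 0.88), and Klf16 at -0.17 was not called.

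Relatives, partners, inducing signals and targets of the family were examined as lists of their own, chosen with earlier results of these data known. Across 10 lists with 81 genes, 62 were tested, and 0 passed with triclosan or with diclosan in limma. At an unadjusted p under 0.05 there were 15 and 17, beside 2359 and 2152 of all 20359 genes or transcripts. With CCPB 13 rose and 12 fell, 40.3% of the 62, beside the 28.3% of all genes. Because of how the lists were chosen, these counts and this share are a description and not a test of the lists. With the slide as a block 4 were higher and 2 lower, namely Cdo1, Cebpb, Egr1 and Klf9 higher and Sgk1 and Tsc22d3 lower.

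Among the Sp factors, which bind the same boxes, 4 of 9 were tested, and Sp9 rose by 0.47 while Sp5 fell by 0.61 with CCPB. The Sp9 probe was dim, averaging -3.91 with CCPB and -4.37 with DMSO. Of the corepressors and coactivators 6 of 10 were tested and 1 was called, the deacetylase Hdac1 at -0.19. Of 4 ubiquitin ligases known to act on Klf proteins, Wwp1 rose by 0.18 and Fbxw7 and Fbxo32 fell by 0.12 and 0.24. None of these 6 calls held with the slide as a block, where their adjusted p ran from 0.252 to 0.855. Blocked sizes were 0.40 for Sp9, -0.33 for Sp5, -0.12 for Hdac1, 0.12 for Wwp1, -0.03 for Fbxw7 and -0.33 for Fbxo32. The 4 tested genes of the ERK5 pathway, which induces Klf2 and Klf4 in endothelium, gave 0 calls in limma and 0 at an unadjusted p under 0.05 in each comparison with DMSO.

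Immediate early genes and steroid and growth factor targets stand for signals known to induce members of the family. Of 11 tested immediate early genes 3 rose and 1 fell with CCPB. Egr1, a zinc-finger factor induced by growth factors and stress, rose by 1.05, or 2.07-fold, adjusted p = 0.000452, and by 1.43 with the slide as a block, adjusted p = 0.0073. Its differences of 0.54 with triclosan and 0.44 with diclosan did not pass, adjusted p = 0.166 and 0.302. Ier2 and Ier3 rose by 0.14 each and Atf3 fell by 0.12. Under the slide block they were 0.22, 0.13 and -0.16 and did not pass, at adjusted p of 0.0783, 0.267 and 0.285.

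Of 7 glucocorticoid response genes, the class of signal that induces Klf9 and Klf15, 2 fell and 1 rose with CCPB. Tsc22d3, the leucine zipper protein GILZ, fell by 0.59, adjusted p = 0.000298, and Sgk1, a kinase of ion transport, fell by 0.35, adjusted p = 0.00179. Both passed with the slide as a block, at -0.67 and -0.50 with adjusted p of 0.0223 and 0.0187. Dusp1, a phosphatase of MAP kinases, rose by 0.22, and at 0.26 with the block it did not pass (adjusted p = 0.231). Tsc22d3 was -0.26 with triclosan and -0.23 with diclosan, neither of which passed (adjusted p = 0.183 and 0.302).

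Of 7 tested genes of the TGF-beta response 1 was called for CCPB against DMSO, Smad4, the shared partner of the receptor-activated Smads, at -0.48, adjusted p = 0.00105, and -0.22 with the slide as a block, adjusted p = 0.145. Among 6 C/EBP and PPAR genes, which work with Klf factors in fat cells and liver, Cebpd fell by 0.75 and Pparg by 0.26 and Ppard rose by 0.31. With the block they were -0.54, -0.21 and 0.44 and did not pass, at adjusted p of 0.0602, 0.218 and 0.194, while Cebpb passed at 0.40, adjusted p = 0.0329, having missed without it at 0.17, adjusted p = 0.0697. Of 9 tested genes of amino acid breakdown, the programme that Klf15 is known to drive in liver, 4 rose and 1 fell with CCPB. Cdo1, cysteine dioxygenase, rose by 0.78, adjusted p = 9.62e-05, and by 0.59 with the slide as a block, adjusted p = 0.026. Tdo2 rose by 0.54 and Hpd by 0.15, neither passing with the block (0.37 and 0.15), and Tat, tyrosine aminotransferase, fell by 0.19 (-0.10 with the block, adjusted p = 0.598).

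Some markers of other liver cells were higher on the CCPB arrays, and the endothelial ones also on the diclosan array of slide 2. Of 6 cholangiocyte markers 4 were tested, and their summed signal was 3.66 to 3.72 with CCPB against 2.89 to 3.07 with DMSO, and 3.16 on diclosan replicate 3. Of 8 endothelial markers 3 were tested, with 9.35 to 9.67 with CCPB against 7.997 to 8.49 with DMSO. Diclosan replicate 3, on slide 2, read 9.58, within the CCPB range, where diclosan replicates 1 and 2 on slide 1 read 8.41 and 7.92. The 3 cholangiocyte markers and 1 endothelial marker called as higher with CCPB in limma became 0 of each with the slide as a block. Krt19, Spp1, Pecam1, Lyve1 and Nos3 were not well above background on any array. The sum over 5 of 8 stellate cell and fibroblast markers was 1.91 to 1.98 with CCPB and 1.83 to 2.49 with DMSO. The part of these cells in the Klf differences was not tested.

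The genes whose level ran most like each member over the 12 arrays were taken from 10232 named genes by Pearson correlation, a description that shares the slides and the groups among its points. For Klf5 these were Rnpep (r = 0.897), Myl9 (r = 0.891) and Irak3 (r = 0.889). For Klf3 they were Actn4 (r = 0.977), Lats2 (r = 0.969) and Rbms1 (r = 0.961), and for Klf4 Pmepa1 (r = 0.946), Popdc2 (r = 0.939) and Rundc3a (r = 0.933). For Klf15 they were Prdm9 (r = 0.91), Zfp592 (r = 0.903) and Cst6 (r = 0.897), and for Klf11 Cables1 (r = 0.916), Slc29a2 (r = 0.895) and Thra (r = 0.891). Klf13 was led by Spon1 (r = 0.888), Klf6 by Ppp3ca (r = 0.864) and Klf10 by Zbtb7a (r = 0.86), lower values than for Klf3 and Klf4.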

How the data were processed

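RNA was hybridised to 12 Agilent arrays of 1 colour, 3 per group, and grouped by the sample labels. Spot intensity was background-subtracted and detrended by the authors with Feature Extraction 10.7.1.1, per the file headers, and was not scaled across arrays. The probe signal in the authors' value table is linear, scaled so that each array's 75th percentile is near 1, and was used as an alternative. Spots of a probe were averaged as log2 intensity, and the array's 75th percentile was subtracted, a scaling that takes the bright end of each array as equal. A probe was kept when well above background on all 3 arrays of a group. The share of probes above background was 51.6% to 55.5% per array. Accessions were matched to RefSeq symbols, which named 21218 of 45579 probes, and the brightest kept probe stood for a gene.

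All arrays were fitted by group with limma 3.58.1 in R 4.3.3, and 6 contrasts were tested (two-sided), calling an adjusted p (Benjamini-Hochberg) under 0.05 over 20359 genes or transcripts. Intervals are 95% and unadjusted. The fit was tested on simulated data drawn without a slide effect, so that test does not cover the sharing of slide and compound. The array files hold no column of another sample (0). The members and lists were chosen with earlier results of these data known. All members are named with every probe, and from each other list the genes with the smallest p against DMSO. For each member above background on all arrays the 3 most correlated named genes were listed. Alternatives changed the slide, replicate block, scaling, background correction, filter, probe rule, outlier spots, groups fitted and replicates. The mean spot signal was not used here, so normexp (offset 50) was run on the median spot signal.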

Additional observations from a re-analysis of the deposited data

How the results depend on the processing

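The counts of the 7 tested members called depended on the setting where CCPB was compared. Against DMSO the 4 calls became 0 with the slide as a block and with the replicate block and slide, 2 with median centring, 1 with normexp and quantile normalization, and 2 over the mean of all probes, where Klf11 turned to 0.0388 (adjusted p = 0.649). With no filter on dim probes Klf11 was not called (adjusted p = 0.104 in limma). Leaving out each array gave 3 to 4. For triclosan minus CCPB the 1 call became 0 with the slide block, 0 with the replicate block and slide, 0 with normexp, and 2 with probes above background on all arrays, and leaving out each array gave 1 to 2. For diclosan minus CCPB the 2 calls became 0 with the slide block, 0 with the replicate block and slide, 0 with median centring, 1 with normexp, 0 with no filter, 1 over the mean of probes, 0 with only the compared groups fitted and 0 on slide 2 alone, a setting chosen after seeing the data, and leaving out each array gave 0 to 2 (0 without diclosan replicate 1, and 1 without diclosan replicate 2, CCPB replicate 2 or CCPB replicate 3). The cause of these changes was not tested. Triclosan minus DMSO, diclosan minus DMSO and triclosan minus diclosan kept 0 calls under each alternative run.

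The replicate numbers did not pair the arrays: deviations from the group means correlated at -0.165 to 0.117 (median -0.0145) over 18 pairs of the same number, and the replicate block alone gave 4 calls for CCPB minus DMSO and 2 for diclosan minus CCPB. On slide 2 alone the lone diclosan array is assumed to vary like the CCPB arrays.

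Over all genes, CCPB minus DMSO had 5757 calls, against 704 with the slide block, 300 with the replicate block and slide, 3316 with median centring, 2805 with no filter and 3641 to 7063 on leaving out each array. Triclosan minus CCPB had 4172, against 287, 12, 2387, 1398 and 2095 to 5618 in the same order of settings. Diclosan minus CCPB had 2925, against 1007, 569, 1368, 1273 and 1642 to 5427, with 1271 when only the compared groups were fitted and 177 on slide 2. Triclosan minus DMSO had 13 and 1 to 46 over the alternatives, diclosan minus DMSO 2 and 0 to 14, and triclosan minus diclosan 0 and 0 to 2. With 3 arrays per group the 95% interval of a difference had a median half-width of 0.145, and the Klf2 probe was too dim for a difference.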
